A study of Homo sapiens with 6 samples.

Results

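Polycomb complex genes were followed in Rh30 cells, a human alveolar rhabdomyosarcoma line that carries the PAX3-FOXO1 fusion, after knockdown of DDX5, which encodes a DEAD-box RNA helicase. The 37 genes are a list of subunits by name, drawn up with earlier results of these data known, and no measured value enters the rule: 6 of the PRC2 core, 5 PRC2 accessory factors, 2 PRC1 ligases, 12 of canonical PRC1, 10 of variant PRC1 and 2 of the deubiquitinase PR-DUB. They are 37 of the 35609 genes to which the deposited transcripts were joined, and all 37 were among the 15226 genes with enough counts to be tested. The 2 groups were control cells and cells labelled siDDX5, with 3 libraries each numbered 1 to 3, and both groups carry the fusion. The series calls its replicates biological. The control treatment, the siRNA sequence and the time after transfection are not given in the sources used here, and all libraries come from a single cell line.

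Polycomb proteins keep developmental genes silent through histone marks. PRC2 methylates lysine 27 of histone H3, with EZH1 or EZH2 as the catalytic subunit. PRC1 ubiquitinates histone H2A through RING1 or RNF2, each paired with a PCGF protein. In canonical PRC1 the CBX subunits read the PRC2 mark, and the PHC, SCML and SCMH proteins bind one another through SAM domains. In variant PRC1, RYBP or its paralog YAF2 takes the place of CBX. PR-DUB, with BAP1 as its enzyme, removes ubiquitin from H2A.

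The libraries held 18202402 to 26156858 estimated counts, so that 3 counts corresponded to 0.115 to 0.165 CPM, counts scaled to a common library total. DDX5 had 1352, 1434 and 1137 CPM in the control libraries and 549, 504 and 396 CPM in the siDDX5 libraries, which is a log2 fold change of -1.44 with an SE of 0.15 (adjusted p = 0.0106 by edgeR's quasi-likelihood test, 0.00204 when the replicate number is a block). Same-numbered libraries deviated together from their group means, so results are also given with this block where it changes them. Of 10 markers of muscle lineage and fusion-positive tumour, 9 had a mean of at least 1 TPM, transcripts scaled for length to a common total, while TFAP2B was listed at 0 in all libraries. The 4 epithelial markers summed to 0.74 to 1.15 TPM in control and 1.20 to 1.51 TPM in siDDX5 libraries, with KRT19 listed at 0 throughout. Of the 4 blood markers, CD68 gave most of a sum of 17.3 to 20.2 TPM in control and 11.1 to 13.1 TPM in siDDX5 libraries. The 3 endothelial markers summed to 5.47 to 7.27 and 4.48 to 6.37 TPM, and the 4 fibroblast markers to 16.4 to 19.1 and 17.0 to 23.1 TPM. The part of these markers in any result was not tested.

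SCML2 stood out among the Polycomb genes: its level was 2.01-fold higher in siDDX5 cells, and 32 of the 37 genes stayed within 0.3 of 0 on the log2 scale. SCML2 was singled out with its earlier result in these data known, so its values are a description. It was the 1 member called at an adjusted p under 0.05, where 0.164% of all genes tested were called (0.0525% higher and 0.112% lower). With the replicate block 2 members were called, SCML2 as higher and CBX6 as lower, against 2.59% of all genes (1.14% higher and 1.45% lower). Without adjustment, p was under 0.05 for 3 members that were higher and 2 that were lower, and for 11.4% of all genes. With the block there were 7 higher and 5 lower, against 20.5% of all genes. The 3 siDDX5 libraries lay above all controls for 6 members and below them for 6, while this held for 18.0% of all genes (8.86% above and 9.16% below). For 4 members, SCML2, CBX6, MTF2 and PHC1, the groups did not overlap in CPM and the unadjusted p was under 0.05, which was so for 9.89% of all genes. All 3 same-numbered pairs pointed up for 13 members and down for 13 others, and pointed 1 way for 42.9% of all genes.

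The members did not shift together in one direction. Their median log2 fold change was -0.04, with 15 above and 22 below 0, beside a median of -0.0016 over all genes tested. By complex the median was -0.05 for the PRC2 core, -0.09 for the PRC2 accessory factors, -0.07 for canonical PRC1 and 0.02 for variant PRC1. Canonical PRC1 held both ends of the range, SCML2 at 1.01 and CBX6 at -0.52. The TPM values of all 37 genes summed to 1924 to 1943 in control and 1673 to 2041 in siDDX5 libraries, so the groups overlapped. Fewer cells of a kind and less RNA per cell cannot be told apart in such bulk samples.

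**Figure D1:**
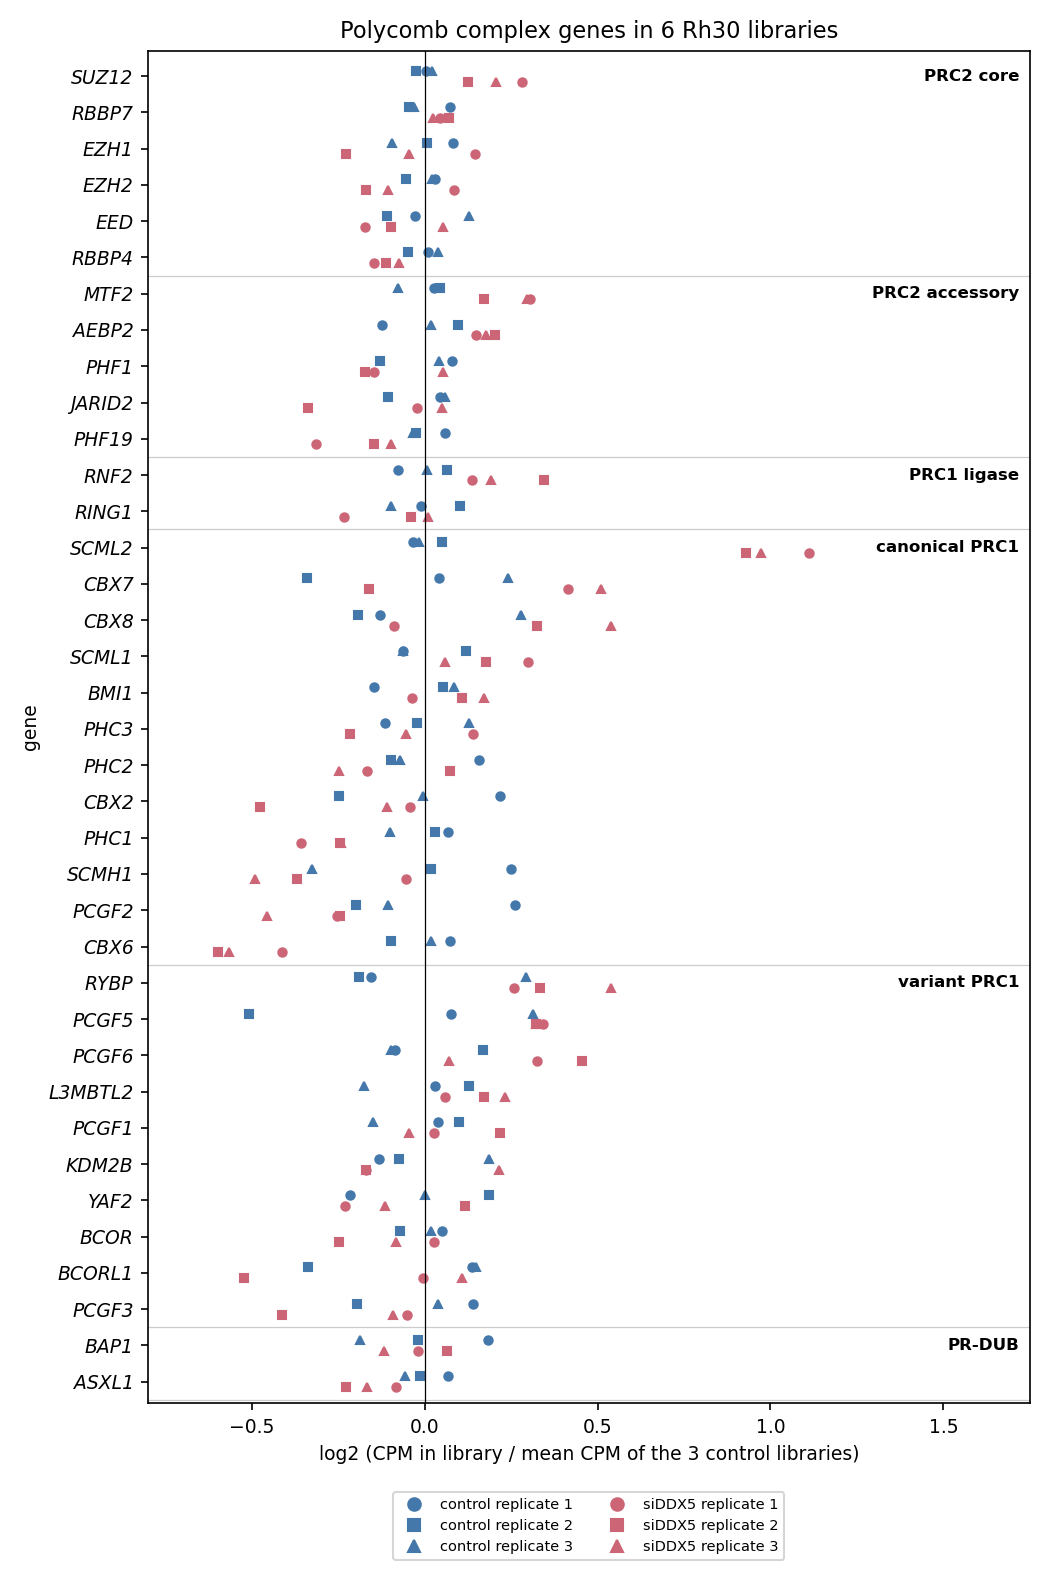
Each point is 1 library: the horizontal axis gives log2 of its CPM over the mean of the 3 control libraries, and the rows are the 37 genes ordered within each complex by fold change. SCML2 is the only row in which all siDDX5 points lie beyond 0.8, and CBX6 is the row with the lowest fold change.

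SCML2 encodes a SAM and MBT domain protein related to Drosophila Sex comb on midleg, which associates with canonical PRC1. The gene (ENSG00000102098.17) lies on the minus strand of chromosome X at positions 18239314 to 18354727 of GRCh38. Its counts came from a long protein-coding transcript, ENST00000251900, and a short one, ENST00000420857.5. The short form skips an exon of 152 bases at positions 18242439 to 18242590 and joins the exon before it directly to the last exon. The junctions are shown because they differ between these 2 forms. In GENCODE 29 the short form is 2435 bases long and the long form 4200, so the skipped exon is not their only difference. Bases before each junction are in lower case and bases after it in capitals, read from the GENCODE 29 transcripts.
SCML2 long form into the skipped exon: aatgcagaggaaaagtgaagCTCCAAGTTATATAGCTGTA
SCML2 long form from the skipped exon into the last exon: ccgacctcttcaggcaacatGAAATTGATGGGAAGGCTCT
SCML2 short form into the last exon: aatgcagaggaaaagtgaagGAAATTGA
The long form has 278 coding bases after the first of these junctions. The short form has 5, followed by the stop codon that ends the printed sequence, so its annotated protein has a different carboxyl end. The SAM domain of SCML2 lies near that end of the protein. The rest of the annotated proteins was not compared.

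The level of SCML2 was 28.3, 30.0 and 28.6 CPM in control replicates 1, 2 and 3, and 62.6, 55.1 and 56.9 CPM in siDDX5 replicates 1, 2 and 3. The lowest siDDX5 library was thus well above the highest control, and the controls spread little, with a mean of 28.97 ± 0.89 CPM against 58.2 ± 3.89 CPM (SD, n = 3 each). This is a log2 fold change of 1.01 with an SE of 0.11 (adjusted p = 0.0106 in edgeR, 0.00207 with the block). The same-numbered pairs gave log2 ratios of 1.14, 0.88 and 0.99. By p, SCML2 was at rank 5 among the 15226 genes tested, and at rank 15 with the block. By size its log2 fold change was the 44th highest. Per length, its mean level went from 15.7 ± 0.28 to 32.1 ± 3.71 TPM (SD, n = 3 each), which moved it from rank 32 to rank 19 among the 37 genes. Limma-trend on log2(TPM + 1) gave 0.98 with an adjusted p of 0.0806, which ends the call. So did leaving out control replicate 1 (adjusted p = 0.0956), siDDX5 replicate 1 (0.0714) or siDDX5 replicate 3 (0.0509), each with a log2 fold change between 0.96 and 1.03.

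Both SCML2 forms were higher in siDDX5 cells. The long form had 593, 542 and 575 estimated counts in the control libraries and 1016, 793 and 783 in the siDDX5 libraries. For the short form the estimated counts were 134, 106 and 119 in control and 251, 225 and 247 in siDDX5 libraries. Neither form passed among all transcripts tested one by one (edgeR adjusted p = 0.192 and 0.197, 0.623 for each with the block). The short form made up 17.3% ± 1.10 of the gene's counts in control and 21.9% ± 2.03 in siDDX5 cells (SD, n = 3 each). Its lowest share in siDDX5 cells, 19.8%, was above its highest in control cells, 18.5%, but the usage test did not call SCML2 (Simes adjusted p = 1.0 without and with the block). The remaining transcript listed above 0, ENST00000398048.4, was so in siDDX5 replicate 3 alone, at 4.16 estimated counts.

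**Figure D2:**
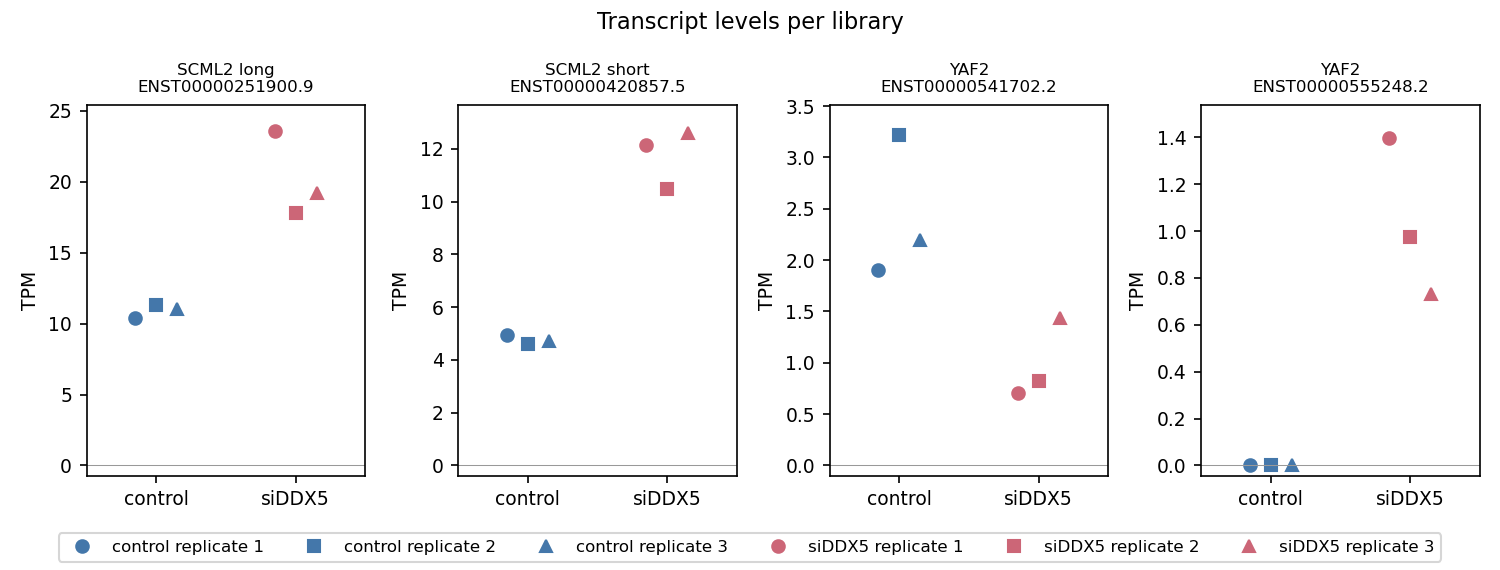
The vertical axes give TPM on separate scales for 2 SCML2 and 2 YAF2 transcripts, with 1 point for each library. Both SCML2 forms are higher in every siDDX5 library, and YAF2 transcript ENST00000555248.2 is listed at 0 in the 3 control libraries.

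No other SAM domain gene of canonical PRC1 was called, without or with the block, or changed as much as SCML2. SCML1 lies on the same chromosome at positions 17737449 to 17754988 on the other strand, and had 40.3, 45.8 and 40.3 CPM in control and 51.9, 47.6 and 43.9 CPM in siDDX5 libraries. These groups overlapped, with a log2 fold change of 0.18 (SE 0.11, adjusted p = 0.585). SCML1 was higher in all 3 pairs, with log2 ratios of 0.36, 0.06 and 0.12. SCMH1, the third relative of Sex comb on midleg, had 74.5, 63.5 and 49.98 CPM in control and 60.3, 48.5 and 44.6 CPM in siDDX5 libraries. It was lower in all 3 pairs but not called (log2 fold change -0.29, SE 0.17, adjusted p = 0.539, 0.113 with the block). As a share of the summed TPM of these 3 genes, SCML2 took 15.5%, 15.7% and 16.9% in control and 26.1%, 29.4% and 31.3% in siDDX5 libraries. SCMH1 went from a mean share of 51.8% ± 1.83 to 39.6% ± 4.07, and SCML1 from 32.1% ± 1.66 to 31.5% ± 2.22 (SD, n = 3 each).

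CBX6 was the member with the lowest fold change. It encodes a chromodomain protein, one of the subunits through which canonical PRC1 binds methylated histone H3, and lies on chromosome 22 at positions 38861450 to 38872314. Its level was 110.2, 97.8 and 106.1 CPM in control and 78.7, 69.2 and 70.7 CPM in siDDX5 libraries, with no overlap. Its log2 fold change of -0.52 (SE 0.10) missed the threshold in edgeR (adjusted p = 0.0851). It fell past the threshold with the block (-0.52, adjusted p = 0.0139) and in the DESeq2 Wald test (adjusted p = 0.00199), which called 2.11% of all genes. The same-numbered pairs gave log2 ratios of -0.49, -0.50 and -0.59.

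The other CBX genes overlapped between groups. CBX2 had a log2 fold change of -0.20 (SE 0.15) and CBX8 of 0.28 (SE 0.19). CBX7 had 0.28 (SE 0.28) and was the one member with a mean below 1 TPM, at 0.76 in control and 0.86 in siDDX5 cells. CBX6 therefore went from 41.4% ± 1.498 to 35.4% ± 2.201 of the summed TPM of the 4 genes (SD, n = 3 each), and CBX2 held the highest share in both groups, 46.0% ± 1.54 and 47.6% ± 3.71.

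The PHC genes encode the Polyhomeotic subunits, whose SAM domains polymerise. PHC1 had 68.5, 66.7 and 61.0 CPM in control and 51.1, 55.2 and 55.2 CPM in siDDX5 libraries. All siDDX5 libraries lay below all controls, but the adjusted p was 0.337 (log2 fold change -0.28, SE 0.10, adjusted p = 0.128 with the block). PHC2 (-0.11, SE 0.12) and PHC3 (-0.04, SE 0.12) overlapped between groups. Of the PCGF genes of canonical PRC1, BMI1 had 70.1, 80.6 and 82.4 CPM in control and 75.7, 83.8 and 87.5 CPM in siDDX5 libraries, with overlapping groups (log2 fold change 0.08, SE 0.11, adjusted p = 0.823). PCGF2, its closest paralog, had a log2 fold change of -0.32 (SE 0.14, adjusted p = 0.449) and no overlap in CPM, but 53.8% of its counts lay on copies outside the primary assembly. In TPM the groups of PCGF2 overlapped, at 21.9 to 30.5 in control and 18.7 to 22.0 in siDDX5 libraries. Its control libraries spread widely, at 50.9, 36.9 and 39.4 CPM, and without control replicate 1 the log2 fold change was -0.16.

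**Figure D3:**
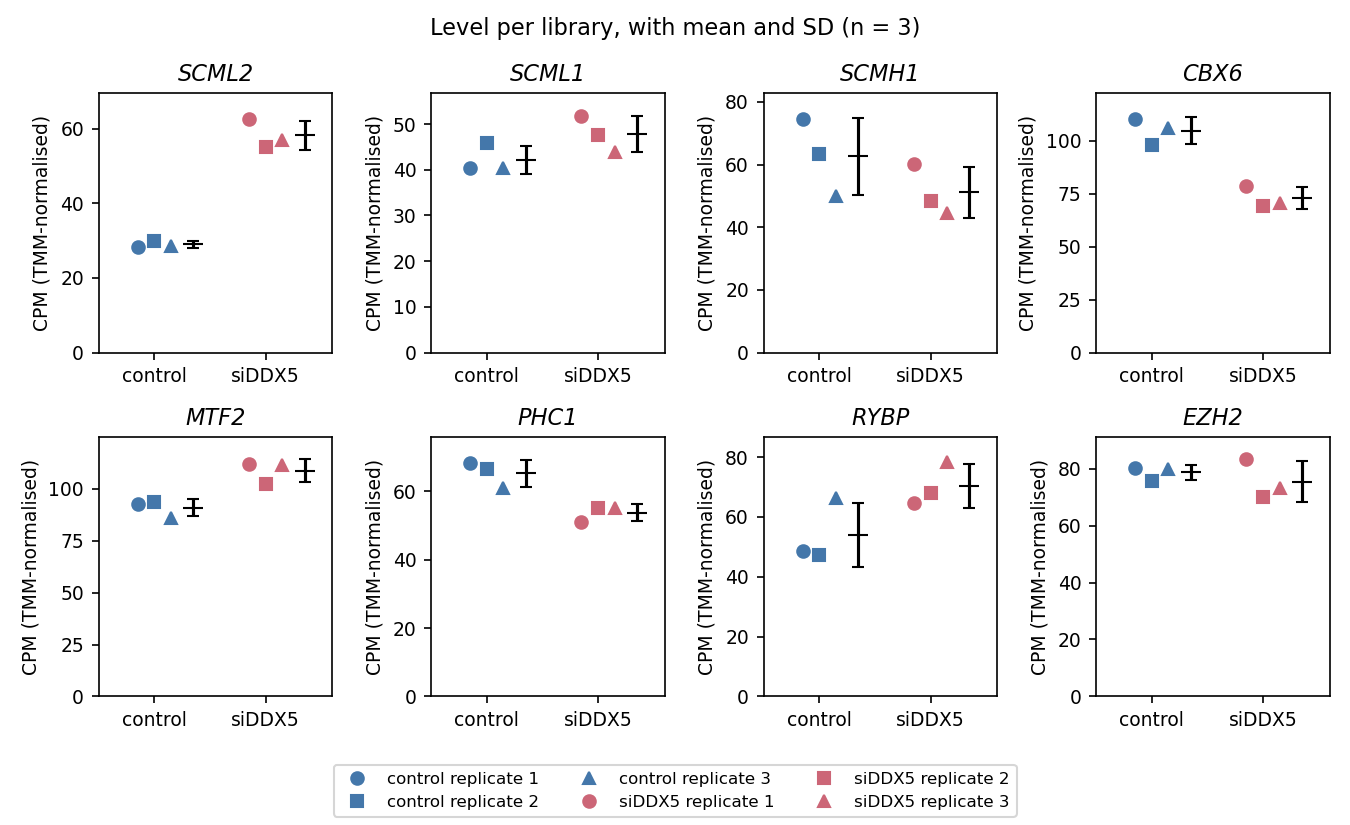
The vertical axes give TMM-normalised CPM from 0 for 8 genes, with 1 point for each library and a bar for the mean and SD (n = 3). SCML2, MTF2, CBX6 and PHC1 show no overlap between groups, while SCML1, SCMH1, RYBP and EZH2 overlap.

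The 2 PRC1 ligases were not called. RNF2 had 31.3, 34.6 and 33.2 CPM in control and 36.3, 42.0 and 37.7 CPM in siDDX5 libraries. Its groups did not overlap, with a log2 fold change of 0.23 (SE 0.11, adjusted p = 0.487, 0.202 with the block), but on the scale of log2(TPM + 1) the value was -0.02. RING1 had 26.1, 28.3 and 24.6 CPM in control and 22.4, 25.6 and 26.5 CPM in siDDX5 libraries. Those groups overlapped (log2 fold change -0.08, SE 0.12, adjusted p = 0.842). The sign turned when only primary-assembly transcripts were counted, to 0.68 (SE 0.70). Of the counts of RING1, 36.4% lay on other copies. In TPM, RING1 made up 33.5% ± 1.49 of the pair in control and 32.4% ± 3.801 in siDDX5 cells (SD, n = 3 each).

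In variant PRC1 no gene was called without or with the block or by DESeq2. An unadjusted p under 0.05 was found for 1 of 10, or 3 with the block, beside 11.4% and 20.5% of all genes. RYBP, which binds RING1 or RNF2 and ubiquitinated H2A, had the largest difference. Its level was 48.5, 47.3 and 66.2 CPM in control and 64.6, 68.1 and 78.4 CPM in siDDX5 libraries. The groups overlapped because control replicate 3 was above siDDX5 replicate 1, while each pair was higher in siDDX5 cells, with log2 ratios of 0.41, 0.52 and 0.24. At a log2 fold change of 0.38 (SE 0.15), RYBP missed the threshold in edgeR (adjusted p = 0.371, 0.0551 with the block). Its paralog YAF2 had -0.07 (SE 0.15, adjusted p = 0.896), and RYBP took 28.0% ± 4.87 of their summed TPM in control and 34.7% ± 3.799 in siDDX5 cells (SD, n = 3 each), with overlapping groups.

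The PCGF proteins of variant PRC1 set which complex forms around the ligase. PCGF5 and PCGF6 had log2 fold changes of 0.33 (SE 0.18) and 0.29 (SE 0.14), with adjusted p values of 0.524 and 0.47. For PCGF5 the siDDX5 libraries lay within 91.8 to 93.0 CPM and the controls at 77.3, 51.6 and 91.2 CPM, so without control replicate 2 the log2 fold change was 0.13. PCGF1 (0.07, SE 0.13) and PCGF3 (-0.18, SE 0.14) overlapped between groups. Of the PCGF1 complex, KDM2B, which binds unmethylated CpG islands, and BCOR with its paralog BCORL1 had log2 fold changes from -0.12 to -0.03. L3MBTL2, an MBT protein of the PCGF6 complex, had 0.16 (SE 0.12). The summed TPM of the 10 genes was 293.6 to 321 in control and 288 to 320.0 in siDDX5 libraries.

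In PRC2 no gene was called without or with the block or by DESeq2. Before adjustment, p was under 0.05 for 1 of the 11 genes, or 2 with the block, beside 11.4% and 20.5% of all genes. EZH2 had 80.4, 75.8 and 79.9 CPM in control and 83.5, 69.9 and 73.0 CPM in siDDX5 libraries, and EZH1 had 41.3, 39.1 and 36.5 against 43.1, 33.3 and 37.7 CPM. Both overlapped between groups, with log2 fold changes of -0.06 (SE 0.11) and -0.03 (SE 0.13). EZH1 made up 29.4% ± 1.55 of their summed TPM in control and 27.6% ± 1.35 in siDDX5 cells (SD, n = 3 each). EED, which binds the finished mark, had 28.4, 26.8 and 31.7 CPM in control and 25.7, 27.1 and 30.0 CPM in siDDX5 libraries, again overlapping (log2 fold change -0.07, SE 0.12). SUZ12, the scaffold of the complex, had 186.8, 182.9 and 189.0 CPM in control and 226, 203 and 215 CPM in siDDX5 libraries. All siDDX5 libraries were above all controls in CPM, but the log2 fold change of 0.21 (SE 0.10) had an adjusted p of 0.461 (0.218 with the block). Per length the groups of SUZ12 overlapped, at 94.5, 93.4 and 97.8 TPM in control and 123.2, 92.8 and 110.8 TPM in siDDX5 libraries.

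The histone-binding subunits RBBP4 and RBBP7, which PRC2 shares with other chromatin complexes, had the highest levels per length of all members. RBBP7 had a mean of 301 ± 1.64 TPM in control and 304 ± 26.3 TPM in siDDX5 cells, and RBBP4 290.4 ± 12.5 and 237 ± 19.9 TPM (SD, n = 3 each). On the CPM scale RBBP4 had a log2 fold change of -0.11 (SE 0.09) and RBBP7 of 0.05 (SE 0.10). In TPM, the share of RBBP4 in the pair was 48.0% to 49.6% in control and 42.2% to 44.6% in siDDX5 libraries.

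MTF2 and PHF19 are PRC2 accessory factors of one family, the Polycomb-like proteins, which help the complex reach CpG-rich DNA. MTF2 had 92.6, 93.7 and 86.2 CPM in control and 112.1, 102.3 and 111.5 CPM in siDDX5 libraries, with no overlap. Its log2 fold change was 0.26 (SE 0.10, adjusted p = 0.367, 0.143 with the block). Per length the groups overlapped, at 79.9, 85.1 and 74.1 TPM in control and 98.3, 69.0 and 81.5 TPM in siDDX5 libraries, and the log2 fold change was 0.10 with length-scaled TPM counts and 0.0440 on log2(TPM + 1). PHF19 had -0.18 (SE 0.10, adjusted p = 0.539) and also no overlap, with all siDDX5 libraries below the controls. PHF1, the third of the family, had -0.09 (SE 0.13), and 92.8% of its counts lay on haplotype or patch copies. With primary-assembly transcripts only, its log2 fold change was -0.72 (SE 0.27, adjusted p = 0.352), and on log2(TPM + 1) it was -0.26. In TPM, MTF2 went from 51.9% ± 1.54 to 57.0% ± 3.82 of the family and PHF19 from 35.0% ± 0.33 to 31.5% ± 3.59 (SD, n = 3 each). AEBP2 (0.18, SE 0.10) had no overlap in CPM and JARID2 (-0.09, SE 0.13) overlapped. In TPM AEBP2 overlapped too, at 115.8 to 136.9 in control and 116.5 to 156.0 in siDDX5 libraries. Neither passed, and AEBP2 and JARID2 mark a second form of PRC2.

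Of the PR-DUB genes, BAP1 had 76.3, 66.2 and 59.0 CPM in control and 66.2, 70.2 and 61.9 CPM in siDDX5 libraries. These groups overlapped fully (log2 fold change -0.02, SE 0.12, adjusted p = 0.967). ASXL1, the partner that activates BAP1, had -0.16 (SE 0.10, adjusted p = 0.581), with all siDDX5 libraries below all controls.

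Within paralog groups, 25 shares of summed TPM were compared, and 6 did not overlap between groups: SCML2 and MTF2 were above, and SCMH1, CBX6, RBBP4 and PHF19 below their control shares. Each of the 6 had p = 0.1 in a two-sided exact permutation test, the smallest p that 3 against 3 libraries allow, and 0.417 after Benjamini-Hochberg adjustment over the 25. The shares of a group add up to the whole, so a higher share of SCML2 comes with a lower share of its relatives. The largest differences were 12.9 percentage points for SCML2 and -12.2 for SCMH1.

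**Figure D4:**
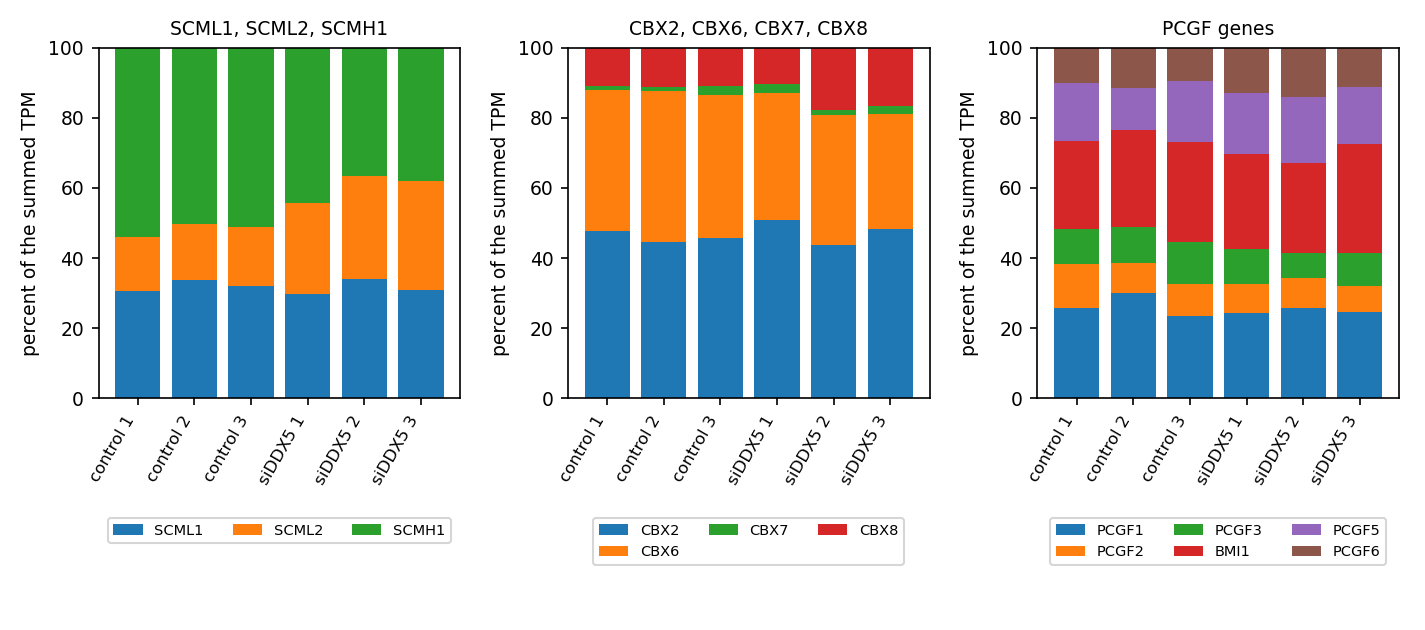
Stacked bars give the percent of the summed TPM that each gene took in each library, for the SCML and SCMH genes, the CBX genes and the 6 PCGF genes including BMI1. The SCML2 band is 15.5% to 16.9% in control and 26.1% to 31.3% in siDDX5 libraries, while each PCGF band overlaps between groups.

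Transcript usage, the share of each transcript among the counts of its gene, could be tested for 34 members. YAF2 and PHC2 were called, without and with the block, where 1.59% of 10706 genes were called without and 1.20% with it. Before adjustment, p was under 0.05 for 4 members and for 5.37% of all genes so tested. YAF2 (chromosome 12, 42157104 to 42238349, minus strand) has 19 transcripts in the files. Its forms differ in what follows one shared exon, and these junctions are printed to show how the protein-coding forms named here are built. Bases before the junction are in lower case and bases after it in capitals.
YAF2 ENST00000534854.6: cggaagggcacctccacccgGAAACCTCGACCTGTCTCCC
YAF2 ENST00000327791.8: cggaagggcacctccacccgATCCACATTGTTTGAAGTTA
YAF2 ENST00000555248.2: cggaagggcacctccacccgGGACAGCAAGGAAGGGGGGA
The first is the main form, with 53.7% ± 3.45 of the counts of YAF2 in control and 51.3% ± 3.69 in siDDX5 cells, and the second has an extra exon of 72 bases, with 16.1% ± 5.63 and 19.8% ± 2.67 (SD, n = 3 each). The last of the 3 ends in an alternative last exon.

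ENST00000555248.2 gave the call (Simes adjusted p = 3.54e-06, 0.000343 with the block). Its estimated counts were 0 in each control library and 69.6, 51.0 and 34.6 in the siDDX5 libraries. ENST00000541702.2, annotated as a processed transcript, had 122, 174 and 129 estimated counts in control and 34.0, 41.6 and 66.1 in siDDX5 libraries. These 2 transcripts share 4994 bases, the whole of the second, and differ only in 101 further bases at the 5′ end of the first. The junction printed for ENST00000555248.2 lies in the shared part, so it does not tell the 2 apart. Their summed level was 4.74, 8.03 and 5.32 CPM in control and 5.12, 5.015 and 5.54 CPM in siDDX5 libraries, so the sum overlapped between groups. How the quantifier divided reads between them was not tested.

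In PHC2 the call came from ENST00000257118.5 (Simes adjusted p = 0.000529, 0.00969 with the block), a minor form. Each control library lists it at 0, and the siDDX5 libraries at 12.5, 16.6 and 19.6 estimated counts, 1.23% ± 0.40 of the counts of PHC2 there (SD, n = 3). Added to the protein-coding ENST00000431992.5, it gave 2.435, 1.07 and 0.80 CPM in control and 1.63, 0.90 and 2.285 CPM in siDDX5 libraries, which overlapped. How far these PHC2 transcripts share sequence was not tested. The main form, ENST00000373418.7, held 76.1% ± 1.12 of the counts in control and 74.6% ± 5.61 in siDDX5 cells (SD, n = 3 each). Once transcripts averaging under 50 counts were dropped, 0 of 31 members were called for usage, with p under 0.05 before adjustment for 3. Over all 7456 genes left, 0.550% were called, and p before adjustment was under 0.05 for 3.86%.

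Partners of these complexes outside the 37 genes were read from the same fit. Of 44 listed, 42 were tested and 0 were called (edgeR). Before adjustment, p was under 0.05 for 2 that were higher and 3 that were lower, and for 11.4% of all genes. DESeq2 called 1, L3MBTL3, and 2.11% of all genes. With the block, 2 passed, against 2.59% of all genes. LCOR, whose locus also encodes a PRC2 accessory protein, had 98.4, 95.6 and 142 CPM in control and 156, 132 and 172 CPM in siDDX5 libraries. It was higher in each pair, with overlapping groups (log2 fold change 0.45, SE 0.17, adjusted p = 0.346, 0.0443 with the block). L3MBTL3, an MBT domain relative of SCML2, had 10.03, 9.02 and 9.16 CPM in control and 6.47, 4.93 and 6.16 CPM in siDDX5 libraries, with no overlap (log2 fold change -0.68, SE 0.17, adjusted p = 0.175, 0.0403 with the block). The median over the 42 partners was -0.04.

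Genes that Polycomb complexes classically repress were read in the same way. Of 41 listed, the HOX cluster genes with CDKN2A and CDKN2B, 28 were tested and 0 were called by edgeR without or with the block or by DESeq2. Before adjustment, p was under 0.05 for 0 of them without the block and for 4, all lower, with it. The shares over all genes were 11.4% without and 20.5% with the block. The range ran from -0.68 (SE 0.31, adjusted p = 0.453) for HOXD11 to 0.48 (SE 0.25, adjusted p = 0.501) for HOXA2, around a median of -0.135. HOX clusters hold antisense genes, and whether the counting used strand is not given in the sources used here.

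Since several PRC2 genes are more abundant in dividing cells, 18 proliferation genes were read beside them. Without the block edgeR called 0 of them, against 0.164% of all genes. With the block it called 1, MCM3, as lower, against 2.59% of all genes. Before adjustment, p was under 0.05 for 3, all lower (MKI67, MCM3 and MCM5), and for 11.4% of all genes. With the block this held for 1 that was higher and 5 that were lower, against 20.5% of all genes. DESeq2 called 1, MCM3, and 2.11% of all genes. MCM3, a subunit of the replicative helicase, had 329, 289.6 and 290.3 CPM in control and 211, 210.3 and 214 CPM in siDDX5 libraries. It fell with the block (log2 fold change -0.52, SE 0.10, adjusted p = 0.0781, 0.0233 with the block). The highest was CCNA2 at 0.21 (SE 0.12), and the median of the 18 was -0.03. The part of these genes in the values of the Polycomb genes was not tested.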

How the data were processed

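Messenger RNA of 6 Rh30 libraries (3 control, 3 siDDX5) was made into TruSeq stranded libraries, per the labels' protocols. The authors deposited 1 table per library of 188753 transcripts, giving estimated counts and TPM. Per the file headers, estimated counts are not normalized, and TPM values are scaled for effective length and to a common total. The submitters' processing notes name kallisto 0.46.0, cutadapt 1.11, FastQC 0.11.8 and bcl2fastq 2.20, and GRCh38. The annotation and filters are not given in the sources used here.

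Transcripts were joined to genes with GENCODE release 29: 169797 by identifier, 15521 on haplotype or patch copies by symbol and 890 by position, with 2545 left out. The joined transcripts held 99.59% to 99.63% of the counts. The version of SCML2's long transcript in the files is 4162 bases long and the one in this annotation, from which its junctions were read, 4200. Estimated counts were summed per gene, rounded, filtered with filterByExpr, TMM-scaled and tested with edgeR 4.0.16 (R 4.3.3) quasi-likelihood tests. P values were adjusted (Benjamini-Hochberg) over all genes, and a gene was called under 0.05. CPM values are TMM-normalised and compare libraries. TPM compares genes. Usage was tested with diffSpliceDGE and Simes p values. The steps recovered planted changes in simulated data. The planted changes were large, and none was in a gene with few counts or a transcript absent from a group.

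Replicate numbers come from the titles. The correlations of deviations within same-numbered pairs were 0.23, 0.32 and 0.66 over 15226 genes, which are not independent, so the numbers were taken to pair the samples. The first principal component (32.8% of variance) set both replicate 3 libraries apart. The coefficient of biological variation was 15.7%, and 10.2% with the block. Nothing in the labels says how the replicate cultures were made, so p values measure the spread between these samples. How surely reads were divided among transcripts enters neither SD nor SE.

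The members and gene lists were chosen with earlier results of these data known. Values in every library are given for SCML2, DDX5, members called without or with the block, members with an unadjusted p under 0.05 and no overlap, and EZH1, EZH2, EED, SUZ12, RING1, RNF2, BMI1 and BAP1. Elsewhere the largest change in each complex and the called and extreme genes of each list are named. Values in every library of SCML1, SCMH1, PCGF2 and PCGF5 were added after they were seen. Alternatives were DESeq2 1.42.0 (size factors and Wald test), other count filters, length-scaled TPM, limma-trend (limma 3.58.1), the block, GC offsets, primary-assembly transcripts only and leaving out libraries.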

Additional observations from a re-analysis of the deposited data

How the results depend on the processing

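Without the cause having been tested, the number of genes changed, 25 as reported, was 394 with the replicate block, 322 in the DESeq2 Wald test, 660 once GC correction joined the block, 136 if no filter was set, 2 from length-scaled TPM counts, 1 with either limma-trend setting, 4 without both replicate 3 libraries and 0 to 15 without 1 library. It was 0 when replicate 1 of the control or of the siDDX5 group was left out, where p before adjustment was under 0.05 for 1247 and 2032 genes. The number of members changed, 1, was 2 with the DESeq2 Wald test, the block, and the block with GC correction, 0 with either limma-trend setting (5 each with p under 0.05 before adjustment) and without both replicate 3 libraries (5), and 0 to 1 without 1 library. SCML2 was higher in each alternative run. It lost its call with limma-trend on log2(TPM + 1) (0.98, adjusted p = 0.0806) and log2(TPM + 0.1) (1.02, 0.0893) and without both replicate 3 libraries (1.02, 0.0745), and ran from 0.96 to 1.04 without 1 library. With the block it was 1.01, and the block changed no other member's call than that of CBX6. The 2 members called for usage became 0 when transcripts averaging under 50 counts were dropped and 2 to 4 without 1 library, where PCGF3 and PHC1 were added without siDDX5 replicate 1. The 6 non-overlapping paralog shares became 11 with estimated counts and 9 to 10 without 1 library. Groups with fewer libraries separate more easily, so the counts without 1 library cannot be set against the 6.

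Of the 37 members, 26 kept 1 sign in all alternatives run and 11 changed it in at least 1. EZH2 turned to 0.0259 with length-scaled TPM counts, and RING1 to 0.0026 with GC correction, 0.0060 with the block and GC correction and 0.68 with primary-assembly transcripts only. RNF2 turned to -0.0228 and -0.0235 with the limma-trend settings, and PHC3 to 0.04305 without both replicate 3 libraries. PCGF1 turned to -0.0741 with length-scaled TPM counts and -0.12 with both limma-trend settings. KDM2B turned to 0.0126 with GC correction and 0.0130 with the block and GC correction. BAP1 turned to 0.0707 with length-scaled TPM counts, 0.02075 and 0.0214 with the limma-trend settings, 0.0483 with GC correction and 0.04998 with the block added to it. Without 1 library, BAP1 ran from -0.11 to 0.0841, BCORL1 from -0.26 to 0.0506, EZH1 from -0.13 to 0.0519, JARID2 from -0.16 to 0.0130, KDM2B from -0.16 to 0.0723, PCGF1 from -0.0085 to 0.13, PHC3 from -0.13 to 0.0467 and YAF2 from -0.17 to 0.0388. On log2(TPM + 1), among uncalled members, RBBP4 was at -0.30, ASXL1 at -0.30, PCGF3 at -0.35, PCGF5 at 0.16, AEBP2 at 0.0791 and CBX8 at 0.0746. At 1.43 to 2.59 CPM, CBX7 had few counts, and its fold change the largest standard error of the members, 0.28.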

Other observations

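Several members varied with the replicate number at least as much as with the knockdown. They were chosen after their values were seen, so no test is given. KDM2B had its highest level in replicate 3 of both groups, at 52.6 CPM (control) and 53.6 CPM (siDDX5), against 42.1 and 43.9 CPM in the other control libraries and 41.0 CPM in both other siDDX5 libraries. CBX8 was also highest in replicate 3, at 16.3 and 19.5 CPM. SCMH1 was lowest there and highest in replicate 1 in both groups. BCORL1 was lowest in replicate 2, at 35.3 CPM (control) and 31.0 CPM (siDDX5), against 44.3 to 49.4 CPM in the other 4 libraries, and CBX2 and PCGF3 were lowest in replicate 2 of both groups as well. SCML2 showed no such spread, with its control libraries within 28.3 to 30.0 CPM.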
